A study of Mus musculus with 8 samples.

Results

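The respiratory chain was examined through the transcripts of its subunits, 95 genes of the 53801 in the table, of which 82 are nuclear and 13 are encoded by mitochondrial DNA. Members were chosen by symbol alone: the numbered Nduf genes of complex I, Sdha to Sdhd of complex II, the Uqcr genes of complex III, the Cox4 to Cox8 genes of complex IV, the Atp5 genes of complex V and the mt-Nd, mt-Cytb, mt-Co and mt-Atp genes, without the 7 symbols marked as pseudogenes. Of the 95 genes, 87 had a read in at least 1 library and 82 (75 nuclear and 7 mitochondrial) received an adjusted p in the test across all genes. Ndufa4 was kept with complex I, as its symbol places it, although its product is now assigned to cytochrome c oxidase.

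The libraries came from stromal cells of MO5 melanomas, which grow from B16 mouse melanoma cells made to carry the ovalbumin gene, in ADAM12-GFP mice. These mice are on a C57Bl/6 background and carry a bacterial artificial chromosome from which GFP is made under control of Adam12, a membrane-bound metalloprotease gene. Cells positive for PDGFRα and PDPN, and negative for the leukocyte protein CD45 and the endothelial protein CD31, were divided by FACS into ADAM12+ (GFP+) and ADAM12- (GFP-) cells, with 4 libraries of each and no treatment of either. The mice were young adults at implantation by the study's methods, which give a single age range for all melanoma experiments. By the same methods replicates are counted as mice, and the labels do not say which GFP+ and GFP- libraries came from the same mouse.

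The respiratory chain passes electrons from NADH (complex I) or succinate (complex II) through coenzyme Q to complex III, cytochrome c and complex IV, where oxygen is reduced. Complexes I, III and IV pump protons across the inner mitochondrial membrane, and complex V uses the gradient to make ATP. All of complex II and most subunits of the others are nuclear genes, whereas mitochondrial DNA encodes a few hydrophobic core subunits that are transcribed within the organelle, so that both genomes must supply complexes I, III, IV and V.

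The promoters of the nuclear subunits are shown first, since many genes of the respiratory chain share promoter motifs of the factors NRF1, GABP (an ETS factor) and YY1. RefSeq windows on GRCm38.p6, from 250 bases before to 50 after the start of transcription, were found for 66 of the 82 nuclear members, 8 of them among the 10 called lower in GFP+ cells below. On either strand, the letters GCGCATGC (NRF1) were in the windows of 10 of the 66 members (15.2%) and of 3.05% of all 27025 genes with a window. CCGGAAG (ETS) was in 16 members (24.2%) and 9.93% of all genes, and AAGATGGC (YY1) in 9 members (13.6%) and 3.19% of all genes. An ETS and a YY1 match shared bases in 1 window, and no other pair of these motifs shared bases in any window. These matches are descriptions of the letters and were not tested as sites.

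Among called members, the NRF1 letters were found in 2 of 8 (Sdhb and Uqcrc1), the ETS letters in 2 (Sdhb and Cox8a) and the YY1 letters in 1 (Ndufa9), against 8, 14 and 8 of the 54 members that were tested and not called. The 30 bases around each of these matches are given with the motif in capitals, all written 5′ to 3′ along the gene. The Uqcrc1 site (chr9:108936668-108936697, plus strand) holds the NRF1 letters on both strands in a single overlapping run, which begins at base 31 of the transcript. The Sdhb NRF1 site (chr4:140961206-140961235, plus strand) begins at base -54 from the start and the Sdhb ETS site (chr4:140961265-140961294, plus strand) at base 7. The Cox8a ETS site (chr19:7217604-7217633, minus strand) begins at base -5 and the Ndufa9 YY1 site (chr6:126849097-126849126, minus strand) at base 30. The last line gives the 100 bases before the start of Cox7b (chrX:106015600-106015699, plus strand), the member with the smallest adjusted p, whose window held none of the 3 motifs.
Uqcrc1 NRF1: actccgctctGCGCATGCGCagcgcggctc
Sdhb NRF1: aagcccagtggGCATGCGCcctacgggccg
Sdhb ETS: ggctcggagaaaCCGGAAGcggccttccac
Cox8a ETS: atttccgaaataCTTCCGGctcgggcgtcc
Ndufa9 YY1: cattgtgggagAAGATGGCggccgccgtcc
Cox7b upstream: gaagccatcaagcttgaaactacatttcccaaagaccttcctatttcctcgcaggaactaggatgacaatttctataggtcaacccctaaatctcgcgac

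Libraries held from 883144 (GFP- replicate 3) to 31666734 (GFP+ replicate 4) counts assigned to genes, and levels are given as normalised read counts, that is, counts divided by the DESeq2 size factor of the library. In GFP- replicate 3 a single read was worth 10.99 normalised counts. That library also had the lowest level of its group for 55 of the 75 tested nuclear members. The sort was checked on Adam12, with 920 to 1693 normalised counts in GFP- and 1833 to 2938 in GFP+ libraries, which was called higher by DESeq2 (adjusted p 0.0266) and not by edgeR (adjusted p 0.0643). Pdgfra and Pdpn, the genes of the sorting proteins, were present in all 8 libraries, and both tests called them higher in GFP+ cells. Pdgfra had 4706 to 7054 normalised counts in GFP- and 12812 to 16246 in GFP+ libraries (DESeq2 adjusted p 1.93e-12), and Pdpn 1609 to 2527 and 2613 to 3848 (DESeq2 adjusted p 0.0134). Of 13 melanocyte markers, 12 were called lower in GFP+ cells and the other, Mc1r, was at 0 in every library. Their summed normalised counts were 53586, 48768, 26732 and 77481 in GFP- replicates 1 to 4 and 4559, 7876, 4692 and 12307 in GFP+ replicates 1 to 4. Of 7 stromal markers 5 were called higher in GFP+ cells, and of 5 Schwann cell markers 4 were called lower. Of 6 adipocyte markers 2 could be tested, and Fabp4 was called higher in both tests. Their summed normalised counts were 38.9 to 110 in GFP- and 151 to 591 in GFP+ libraries, mostly from Fabp4, and the defining marker Adipoq had at most 4.03 in any library. The part of these other cells in the differences described here was not tested.

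Several subunit transcripts were lower in GFP+ cells. Of the 82 members tested, 10 were called lower, with a DESeq2 adjusted p under 0.05, against 4.76% of all 15283 genes tested. None was called higher, against 4.66% of all genes. The 10 are nuclear genes: Ndufa4 and Ndufa9 of complex I, Sdhb of complex II, Uqcr10, Uqcrc1 and Uqcrq of complex III, Cox7b and Cox8a of complex IV, and Atp5a1 and Atp5b of complex V. The edgeR quasi-likelihood test, which tested 80 members, called 7 of these lower (background 2.28%) and none higher (background 2.83%), with Ndufa9, Uqcr10 and Atp5b losing their call at edgeR adjusted p of 0.0544, 0.0716 and 0.0724. In bulk RNA, fewer cells of a type and less RNA per cell cannot be told apart.

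The whole set leaned the same way as its called members. A negative log2 ratio (the fitted log2 fold change of GFP+ over GFP-) was found for 64 of the 82 members, against 50.5% of all genes tested. The median log2 ratio was -0.43 over the 75 nuclear members and -0.26 over the 7 mitochondrial members, where the median of all genes was -0.01. The mitochondrial median was -0.14 without GFP+ replicate 1 and -0.18 without GFP- replicate 2. Levels of the groups did not overlap for 11 members, all lower in GFP+ cells (background 5.95%), and for none that was higher (background 6.37%). The summed level of the nuclear members was 43883, 40909, 28193 and 47125 normalised counts in GFP- replicates 1 to 4, and 28637, 25937, 28519 and 26718 in GFP+ replicates 1 to 4. The 4 GFP+ libraries lay close together, below GFP- replicates 1, 2 and 4, and GFP- replicate 3 lay among them. Within the GFP- group the libraries had the same order in this sum as in the melanocyte marker sum. Replicate 4 was highest and replicate 3, which also held the fewest counts (883144), was lowest. In the GFP+ group the orders differed. The part of other cells or of depth in this sum was not tested. Without GFP- replicate 3, 21 members were called lower, all 10 among them. As a share of all counts the nuclear members took 0.404% ± 0.0904 of GFP- libraries and 0.246% ± 0.00748 of GFP+ libraries (mean ± SD, n = 4 each).

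**Figure D1:**
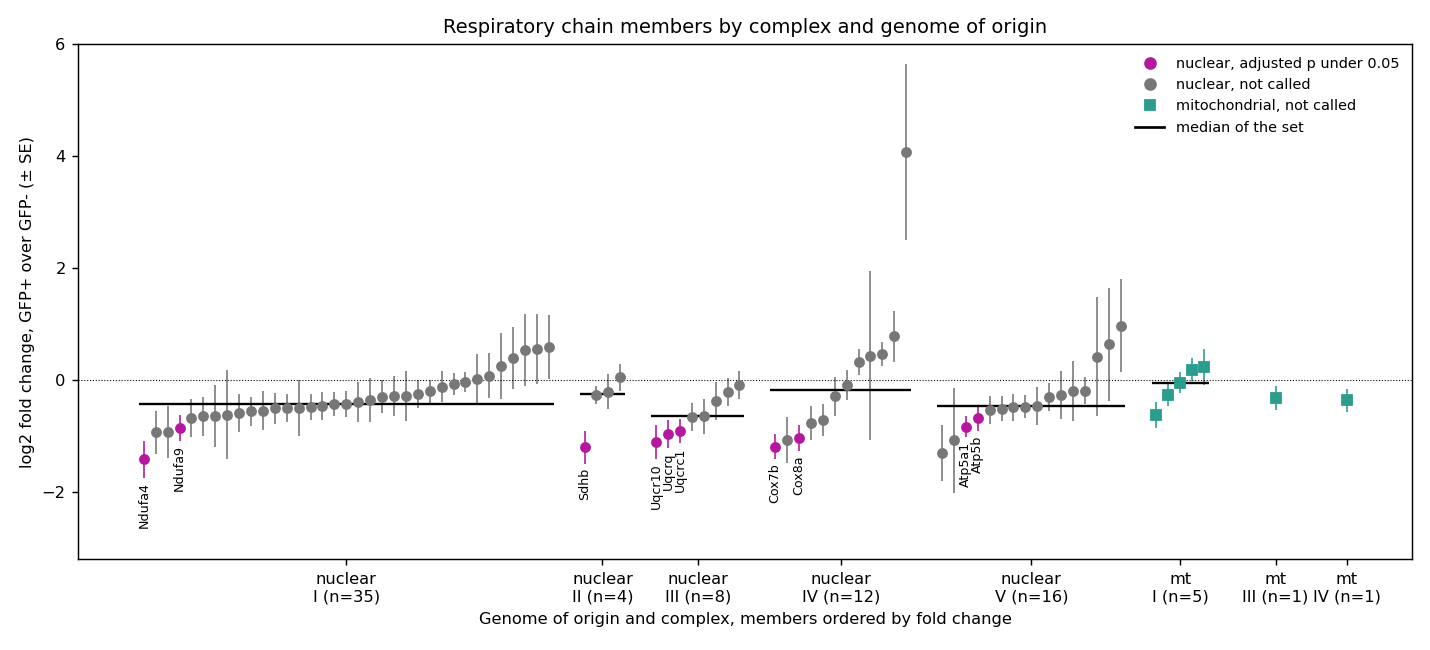
Log2 fold change of GFP+ over GFP- cells, with its standard error, for the 82 members with an adjusted p, ordered within each complex and genome of origin (mt, mitochondrial). Named points are the 10 called lower. Horizontal bars give the median of each set (none is drawn apart from the point where a set holds 1 gene), and the highest point in complex IV is Cox6b2, at 4.08.

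Complex I takes electrons from NADH. Of its 36 nuclear members 35 were tested, 28 with a negative log2 ratio (background 50.5%), and their median was -0.43. Ndufa4 (ENSMUSG00000029632, chromosome 6, 11900292 to 11907497, minus strand) had 426, 292, 187 and 419 normalised counts in GFP- replicates 1 to 4 and 88.9, 106, 152 and 162 in GFP+ replicates 1 to 4. Every GFP+ library was below every GFP- library. The log2 ratio of Ndufa4 was -1.41 ± 0.33 (SE, DESeq2 adjusted p 6.48e-04), that is, 2.66-fold lower. Ndufa9 (ENSMUSG00000000399, chromosome 6, 126821721 to 126849136, minus strand), an accessory subunit where the matrix and membrane arms of the complex meet, had 708, 456, 374 and 585 normalised counts in GFP- and 275, 299, 326 and 298 in GFP+ libraries, again without overlap. This gave a log2 ratio of -0.85 ± 0.23 (SE, DESeq2 adjusted p 5.15e-03), with an adjusted p of 0.0561 without GFP- replicate 4.

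Outside the catalytic core of complex I, 28 nuclear members that carry its symbols were tested, Ndufa4 among them. Of these, 2 were called lower, a share near the background of 4.76%, and 21 had a negative log2 ratio (background 50.5%). The 7 nuclear members of the core all had a negative log2 ratio, with a median of -0.43, and 0 were called lower, against the same backgrounds. The nuclear member of complex I with the highest level per length, Ndufc2, had 395 normalised counts per kb of exon as a mean over the 8 libraries, and was not the highest in GFP- libraries alone. Its libraries spread from 242 to 351 normalised counts in GFP- and from 249 to 311 in GFP+ cells, so that the groups overlapped. Ndufc2 had a log2 ratio of -0.20 ± 0.21 (SE, DESeq2 adjusted p 0.642).

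Complex II is succinate dehydrogenase, which also acts in the tricarboxylic acid cycle. Of its 4 members only Sdhb, the iron-sulfur subunit, was called, lower in GFP+ cells (background 4.76%). Sdhb (ENSMUSG00000009863, chromosome 4, 140961203 to 140979193, plus strand) had 1530.3, 1493, 725 and 1768 normalised counts in GFP- replicates 1 to 4 and 872, 572, 470.2 and 521 in GFP+ replicates 1 to 4. The groups overlapped through GFP- replicate 3 and GFP+ replicate 1. Sdhb had a log2 ratio of -1.20 ± 0.30 (SE, DESeq2 adjusted p 1.51e-03). Over the 8 libraries Sdhb had the highest mean level per length of the complex, 444 normalised counts per kb, but in GFP+ libraries alone Sdhd and Sdha were above it. The flavoprotein Sdha and the membrane anchors Sdhc and Sdhd had log2 ratios of -0.27, 0.05 and -0.21 and were not called. Whether Sdhb differed from them in its change was not tested.

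Complex III, the cytochrome bc1 complex, passes electrons to cytochrome c. All 8 nuclear members had a negative log2 ratio (background 50.5%), with a median of -0.65, and 3 were called lower (background 4.76%). Uqcrc1 (ENSMUSG00000025651, chromosome 9, 108936633 to 108949623, plus strand), a core protein on the matrix side that the study names, had 1562, 1373, 824 and 1483 normalised counts in GFP- and 769, 744, 671 and 649 in GFP+ libraries. No GFP+ library reached the lowest GFP- library. Uqcrc1 had a log2 ratio of -0.91 ± 0.21 (SE, DESeq2 adjusted p 6.29e-04). The study named this gene and Atp5a1 on these same samples. All calls given here rest on those samples, so none is evidence independent of the study.

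The other called members of complex III are small subunits. Uqcrq (ENSMUSG00000044894, chromosome 11, 53427922 to 53430831, minus strand) had 1035, 781, 429 and 910.3 normalised counts in GFP- and 362, 437, 404 and 449 in GFP+ libraries. The groups overlapped only through GFP- replicate 3. This gave a log2 ratio of -0.96 ± 0.26 (SE, DESeq2 adjusted p 3.89e-03). Uqcr10 (ENSMUSG00000059534, chromosome 11, 4701973 to 4704342, minus strand) had 419, 256, 176 and 354 normalised counts in GFP- and 135, 112, 176 and 153 in GFP+ libraries, with GFP- replicate 3 at the level of the highest GFP+ library. Uqcr10 had a log2 ratio of -1.11 ± 0.31 (SE, DESeq2 adjusted p 6.49e-03), with an adjusted p of 0.0593 without GFP- replicate 1 and 0.073 without GFP- replicate 4.

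Uqcrb had the highest level per length of the nuclear members of complex III, 767 normalised counts per kb. Its reads are uncertain, since 25.5% of the 50-base windows of its transcripts also occur in other annotated transcripts. Uqcrb had 963, 781, 527 and 997 normalised counts in GFP- and 383, 628, 504 and 590.1 in GFP+ libraries, which overlapped. This gave a log2 ratio of -0.65 ± 0.25 (SE, DESeq2 adjusted p 0.0806), and it was called without GFP- replicate 3 (adjusted p 8.49e-03). Cyc1, the cytochrome c1 gene of the same complex, falls outside the symbols that chose the members and is described with the electron carriers below.

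**Figure D2:**
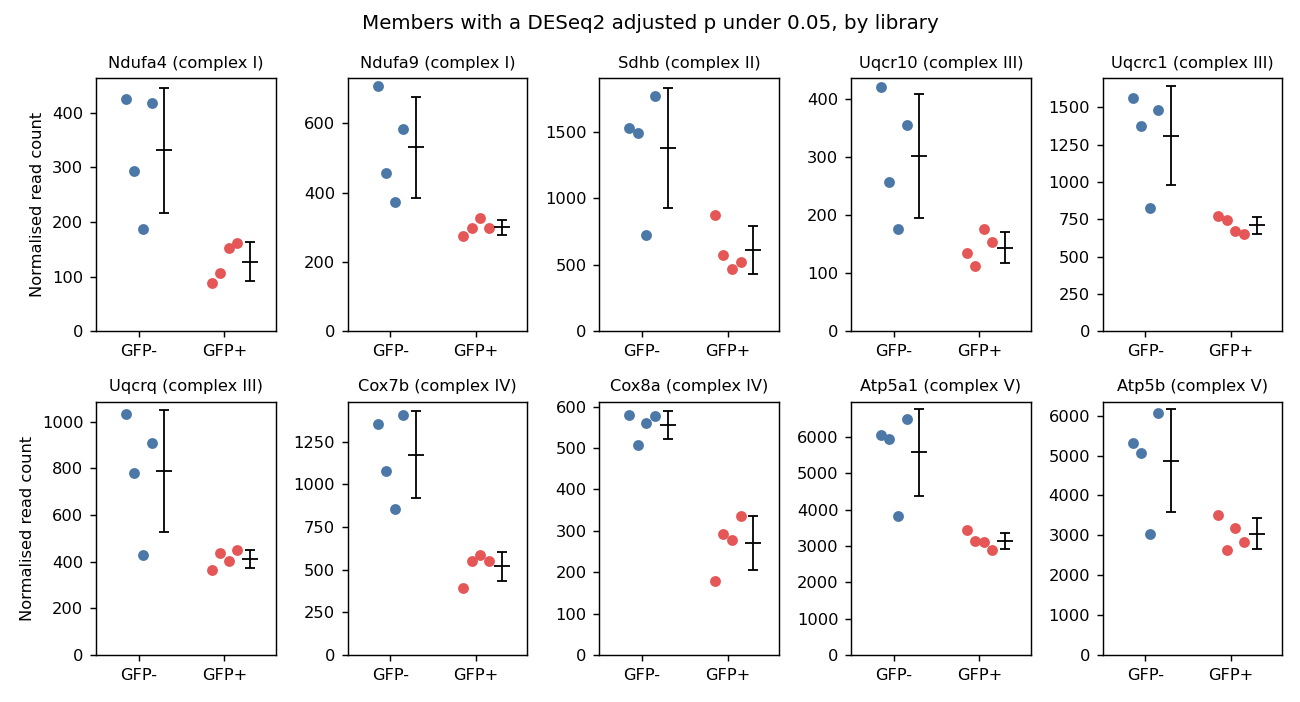
Normalised read counts of the 10 members called lower in GFP+ cells, by library, with the mean and SD of each group (n = 4) as a black bar beside the points. GFP+ libraries lie below all GFP- libraries for Ndufa4, Ndufa9, Uqcrc1, Cox7b, Cox8a and Atp5a1, and the groups overlap or touch for Sdhb, Uqcr10, Uqcrq and Atp5b.

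Complex IV, cytochrome c oxidase, reduces oxygen. Of its 18 nuclear members, 12 were tested, 7 with a negative log2 ratio (background 50.5%), and the median was -0.19. The 12 include the tissue forms Cox4i2 and Cox6b2, which had low levels and log2 ratios of 0.44 and 4.08. Ndufa4, at -1.41, is counted with complex I. Cox7b (ENSMUSG00000031231, chromosome X, 106015700 to 106022450, plus strand), a small structural subunit, had 1353, 1081, 857 and 1410.3 normalised counts in GFP- replicates 1 to 4 and 394, 553, 586 and 550.2 in GFP+ replicates 1 to 4. The groups were well apart. Cox7b had a log2 ratio of -1.19 ± 0.22 (SE, DESeq2 adjusted p 4.63e-06) and an edgeR adjusted p of 0.00495, the smallest among the members in both tests. Over the 8 libraries Cox7b had the highest mean level per length of the nuclear members of the complex, 699 normalised counts per kb, but in GFP+ libraries alone Cox6a1 and Cox8a were above it.

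Cox8a (ENSMUSG00000035885, chromosome 19, 7215153 to 7217616, minus strand), the form of the last nuclear subunit that most tissues use, had 579, 507, 560.4 and 578 normalised counts in GFP- and 179, 291, 278 and 334 in GFP+ libraries. GFP- replicate 3 was here within the range of the other libraries of its group, and the groups did not overlap. Cox8a had a log2 ratio of -1.03 ± 0.23 (SE, DESeq2 adjusted p 3.96e-04). Other members of complex IV went the other way without being called. Cox6b1, Cox7a2l and Cox7c, chosen after their values were seen, had log2 ratios of 0.32, 0.47 and 0.78, with DESeq2 adjusted p of 0.464, 0.184 and 0.335. Of the windows of their transcripts, 22.1% for Cox7c and 13.8% for Cox7a2l also occur in other annotated transcripts, and none for Cox6b1. The reads of Cox7c and Cox7a2l are therefore uncertain. Cox7c had 22.0 to 85.5 normalised counts in GFP- and 85.2 to 102 in GFP+ libraries. Cox7a2l, which acts in joining complexes III and IV, had 193 to 297 normalised counts in GFP- and 268 to 351 in GFP+ libraries.

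The forms of complex IV subunits that are known from muscle, testis, lung or hypoxic cells had low levels. Cox4i2, the form linked to lung and low oxygen, had 12.2, 0.717, 0 and 6.30 normalised counts in GFP- and 0, 3.77, 18.4 and 6.71 in GFP+ libraries, which overlapped, at a log2 ratio of 0.44 ± 1.51 (SE, DESeq2 adjusted p 0.926). Cox6a2, Cox7a1 and Cox8b, the forms of heart and skeletal muscle, had at most 9.99, 11.7 and 3.84 normalised counts in any library and no adjusted p. Cox8c, a testis form, was at 0 in all 8 libraries. Cox6b2, another testis form, had 0, 1.43, 0 and 0.525 normalised counts in GFP- and 45.8, 6.28, 0.768 and 7.05 in GFP+ libraries. GFP+ replicate 1 stood apart, and the groups overlapped. Cox6b2 had a log2 ratio of 4.08 ± 1.57 (SE, DESeq2 adjusted p 0.0825), and it was 2.44 ± 2.07 (SE) without GFP+ replicate 1. Depth limits these genes, since a count of 0 in GFP- replicate 3 allows up to 33.0 normalised counts (3 reads), for counting error only.

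Complex V is the ATP synthase, whose F1 head holds the catalytic sites. Of its 16 nuclear members, all tested, 13 had a negative log2 ratio (background 50.5%), with a median of -0.47, and 2, Atp5a1 and Atp5b, were called lower (background 4.76%). Atp5a1 (ENSMUSG00000025428, chromosome 18, 77773729 to 77782869, plus strand), the alpha subunit, which the study names, had 6049, 5939, 3824 and 6481 normalised counts in GFP- and 3427, 3122, 3114 and 2877 in GFP+ libraries. The groups did not overlap. Atp5a1 had a log2 ratio of -0.84 ± 0.19 (SE, DESeq2 adjusted p 3.13e-04), and at 1389 normalised counts per kb its level per length was the highest of the nuclear members.

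Atp5b (ENSMUSG00000025393, chromosome 10, 128083273 to 128090391, plus strand), the catalytic beta subunit, had 5309, 5074, 3032 and 6064 normalised counts in GFP- and 3504, 2632, 3188 and 2842 in GFP+ libraries. GFP- replicate 3 lay among the GFP+ libraries. Atp5b had a log2 ratio of -0.69 ± 0.22 (SE, DESeq2 adjusted p 0.0269), and the call was lost in 8 of 15 alternatives, among them the fits without GFP- replicate 1, 2 or 4 or GFP+ replicate 2, 3 or 4, where the adjusted p ran from 0.073 to 0.129. The other 3 subunits of the head, Atp5c1, Atp5d and Atp5e, had negative log2 ratios and were not called.

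A single library decided the value of Atp5h, a subunit of the peripheral stalk that was singled out after its values were seen. It had 1370.2, 1172, 1242 and 1628 normalised counts in GFP- replicates 1 to 4 and 13.9, 921, 879.6 and 758 in GFP+ replicates 1 to 4, without overlap. With all libraries the log2 ratio was -1.07 ± 0.94 (SE, DESeq2 adjusted p 0.571). Without GFP+ replicate 1 it was -0.66 ± 0.19 (SE, DESeq2 adjusted p 0.0108). Of the 50-base windows of its transcripts 19.9% occur elsewhere, so that this gene is uncertain.

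The 13 mitochondrially encoded members could be measured only in part. Mt-Co2, mt-Co3, mt-Atp6, mt-Atp8 and mt-Nd4l were listed at 0 in all 8 libraries and mt-Nd3 had 6 reads in all. In the annotation, 100% of the 50-base windows of mt-Co2, 99.9% of those of mt-Co3, 99.5% of mt-Atp6, 98.8% of mt-Nd4l and 98.0% of mt-Nd3 also occur in annotated nuclear copies of mitochondrial DNA, which had from 0 to 10 reads each over all libraries. Mt-Atp8 shares none of its windows, but 21.1% of it overlaps mt-Atp6 on the same strand. How reads that match several places or genes were counted is not given in the sources used here, so these zeros are no measure of the level. Nuclear Cox4i1, the common form of the largest nuclear subunit of complex IV, and Ndufa13 of complex I were also listed at 0 in all libraries, and are treated as not measured.

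None of the 7 mitochondrial members that were tested was called (backgrounds 4.76% lower and 4.66% higher). At those shares this count says nothing particular about so few genes. Of the 7 members, 6 had the highest levels per length of the chain, in either group alone as well. The seventh, mt-Nd6, ranked below the nuclear Atp5a1 over the 8 libraries and in GFP- libraries, and above it in GFP+ libraries. The length used for a nuclear gene covers all its annotated exons, which can exceed a single transcript and lower its level per length. Per kb, mt-Nd1 had 9693 normalised counts, mt-Cytb 8620.4, mt-Co1 7547, mt-Nd5 5299, mt-Nd4 3249, mt-Nd2 3241 and mt-Nd6, the gene on the opposite strand from the others, 1307, as means over the 8 libraries. Neighbours in this order overlapped in their range over libraries, except at the last step, from mt-Nd2 (2403 to 4151 normalised counts per kb) to mt-Nd6 (784 to 2173). For mt-Nd4 and mt-Co1, 62.2% and 51.1% of the windows occur in nuclear copies, so their levels are uncertain.

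Mt-Nd5 (ENSMUSG00000064367, mitochondrial positions 11742 to 13565, plus strand), a proton-pumping subunit of complex I, had 14896, 13415, 8262 and 10318 normalised counts in GFP- and 5714, 7235, 8189 and 9292 in GFP+ libraries. The groups overlapped. Its log2 ratio was -0.63 ± 0.23 (SE, DESeq2 adjusted p 0.0622). It was called in 5 of the 15 alternatives, among them the fits without GFP- replicate 3 (adjusted p 0.0081) or GFP+ replicate 4 (0.027).

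The groups overlapped for the other mitochondrial members as well. Mt-Co1, the catalytic subunit of complex IV, had 16380.4, 14263, 10053 and 11777 normalised counts in GFP- and 9007, 8684, 11331 and 11783 in GFP+ libraries, at a log2 ratio of -0.36 ± 0.20 (SE, DESeq2 adjusted p 0.28). Mt-Cytb, cytochrome b of complex III, had 13719, 12598, 7922 and 9606 normalised counts in GFP- and 8003, 7176, 9531 and 10341 in GFP+ libraries, at a log2 ratio of -0.32 ± 0.21 (SE, DESeq2 adjusted p 0.408). In both genes GFP- replicates 1 and 2 were the highest of all libraries and the rest were mixed. Mt-Nd4 had a log2 ratio of -0.26 (adjusted p 0.485) and mt-Nd1 of -0.04 (0.943). Mt-Nd2 and mt-Nd6 had positive values of 0.18 (0.685) and 0.23 (0.759). The direction of mt-Nd1 turned positive in 3 of the 8 fits that left out a library, and that of mt-Nd6 turned negative without GFP+ replicate 4.

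**Figure D3:**
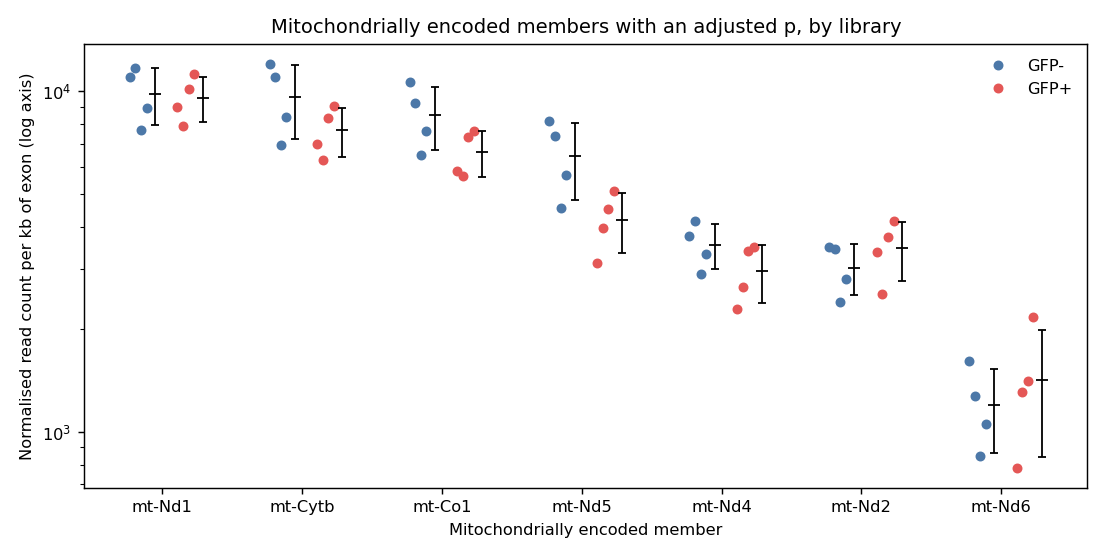
Normalised read counts per kb of exon (log axis) of the 7 mitochondrially encoded members with an adjusted p, by library, with the mean and SD of each group (n = 4) as a black bar. The groups overlap for every gene, including mt-Nd5, for which 3 of the 4 GFP+ libraries lie below all GFP- libraries.

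Nuclear and mitochondrial sums were also set side by side. The mitochondrial members summed to 65161, 61444, 40543 and 48274 normalised counts in GFP- replicates 1 to 4 and 38385, 37637, 48004 and 52407 in GFP+ replicates 1 to 4, which overlapped. The GFP+ mean was 0.819 of the GFP- mean, where for the nuclear members it was 0.686. The ratio of the mitochondrial to the nuclear sum was 1.485, 1.502, 1.44 and 1.02 in GFP- and 1.34, 1.45, 1.68 and 1.96 in GFP+ libraries, which overlapped too. By complex, the GFP+ mean of the nuclear sum was 0.780 of the GFP- mean for complex I, 0.713 for complex II, 0.635 for complex III, 0.692 for complex IV and 0.637 for complex V. These sums carry no test, and differences between complexes or genomes were not tested.

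**Figure D4:**
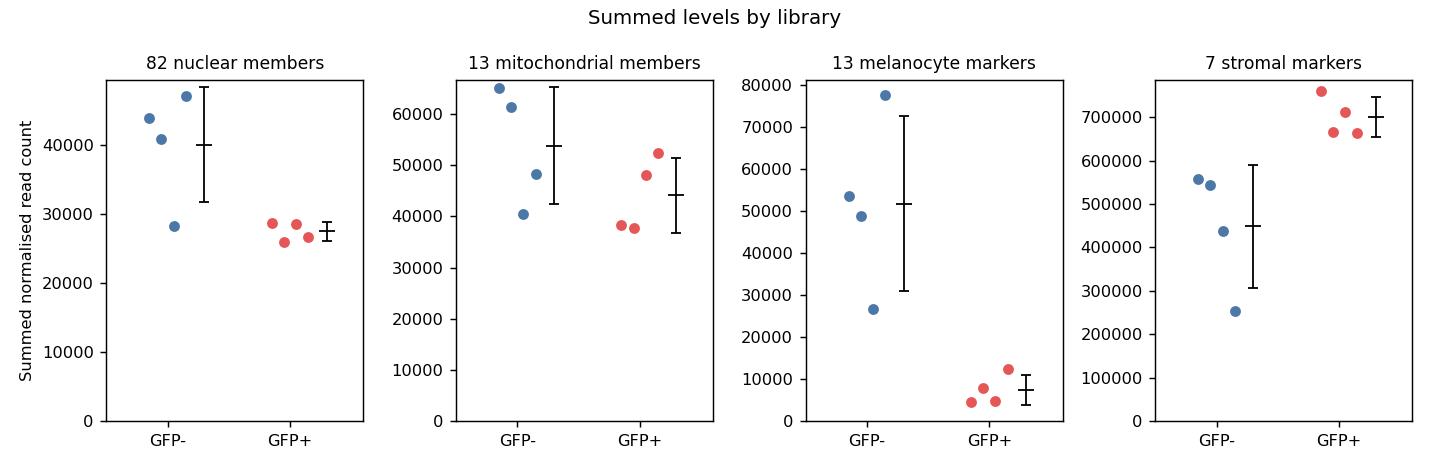
Summed normalised read counts by library of the nuclear members, the mitochondrial members, the melanocyte markers and the stromal markers, with the mean and SD of each group (n = 4) as a black bar. GFP- replicate 3 (the third point of its group) lies with the GFP+ libraries in the nuclear sum, and the melanocyte sum of every GFP- library is above that of every GFP+ library.

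Other genes of the pathway were read from lists of assembly factors, electron carriers, further subunits, factors of mitochondrial DNA expression and nuclear regulators, 114 genes in all. Of the 107 tested, 7 were called lower and 1 higher in DESeq2 (backgrounds 4.76% and 4.66%), with a median log2 ratio of -0.39. The edgeR test called 2 lower and 1 higher (backgrounds 2.28% and 2.83%). The share called lower was near the background in both tests, so these counts say nothing particular about the lists. No assembly factor of complexes I, II or III was called among 15, 4 and 6 tested. Of 20 tested for complex IV only Taco1, an activator of the translation of mt-Co1, was called, at a log2 ratio of -1.77 ± 0.49 (SE, DESeq2 adjusted p 0.0062, edgeR adjusted p 0.101). Atpif1, the inhibitor of the ATP synthase, had a log2 ratio of -0.60 ± 0.20 (SE, DESeq2 adjusted p 0.0324, edgeR adjusted p 0.0933), and 25.2% of its windows occur elsewhere.

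Among 19 electron carriers DESeq2 called 4 lower (background 4.76%) and edgeR 1 (background 2.28%). Cyc1 (chromosome 15, 76343523 to 76346260, plus strand), the cytochrome c1 that links complex III to cytochrome c, had 902, 602, 329.6 and 813 normalised counts in GFP- and 433, 295, 174 and 235 in GFP+ libraries. Only GFP- replicate 3 lay within the range of the GFP+ libraries. This gave a log2 ratio of -1.24 ± 0.36 (SE, DESeq2 adjusted p 8.78e-03) and an edgeR adjusted p of 0.0434. Coq7, Coq8a and Coq9, which act together in the synthesis of coenzyme Q, had log2 ratios of -0.92, -1.42 and -0.95, with DESeq2 adjusted p of 0.0222, 0.0206 and 0.0476. None of these 3 was called by edgeR, with adjusted p of 0.162, 0.156 and 0.2.

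Of 11 nuclear regulators, 1 was called in each direction (backgrounds 4.76% lower and 4.66% higher). Ppargc1a, the coactivator PGC-1α, which drives the making of mitochondria in many tissues, had 1273, 966, 890.0 and 2211 normalised counts in GFP- and 186, 218, 121 and 336 in GFP+ libraries. The groups were far apart, in the same direction as the melanocyte markers. Ppargc1a had a log2 ratio of -2.63 ± 0.36 (SE, DESeq2 adjusted p 1.38e-10). Esrrg, an orphan nuclear receptor that acts with PGC-1 coactivators, had 6.78, 23.6, 54.9 and 7.88 normalised counts in GFP- and 5274, 503, 735 and 13.8 in GFP+ libraries. GFP+ replicate 1 was by far the highest and GFP+ replicate 4 lay among the GFP- libraries. Esrrg had a log2 ratio of 6.24 ± 1.38 (SE, DESeq2 adjusted p 2.5e-04).

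The regulators whose motifs were searched above were not called. Nrf1 had a log2 ratio of -0.46 (DESeq2 adjusted p 0.303) and Gabpa, a subunit of GABP, of 0.35 (0.315). None of the 23 tested factors of mitochondrial DNA expression was called, a count near the backgrounds of 4.76% lower and 4.66% higher. Tfam, which packages and transcribes mitochondrial DNA, had 186 to 260.5 normalised counts in GFP- and 124 to 293 in GFP+ libraries, and Polrmt, the mitochondrial RNA polymerase, 85.5 to 188 and 97.3 to 430.5. Both ranges overlapped, with DESeq2 adjusted p of 0.987 and 0.418.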

How the data were processed

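RNA from 8 sorted populations, 4 GFP+ and 4 GFP-, was sequenced from stranded total RNA libraries for small inputs. According to its methods section, reads were trimmed by the authors with cutadapt 3.4, mapped to GRCm38 with STAR 2.7.3a and counted by strand on Ensembl genes with featureCounts 2.0.1. The authors deposited raw read counts per gene and library, and all values here start from those. Other deposited columns were left unused: a score per library (count over size factor, rounded), mean signal per group and over all libraries, the authors' fold ratio and log2 fold change, p-value with its adjusted form, and dispersions. Per-sample columns without a sample: 0.

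In R 4.3.3, DESeq2 1.42.0 was fitted to the 29043 genes with a count, with the group as the only term, and adjusted by the Benjamini-Hochberg method over 15283 genes after independent filtering (317 had no p by Cook's distance). Calls had an adjusted p under 0.05. edgeR 4.0.16 (quasi-likelihood, TMM) and limma 3.58.1 (voom) were alternatives, with other size factors, filters, the replicate block and single libraries left out. The last alternatives, limma and the removal of both GFP- replicate 3 and GFP+ replicate 1, were chosen after seeing the data. Levels per kb are mean normalised counts over the length of all annotated exons of a gene, merged over transcripts, in GENCODE M21 (same assembly). In that annotation 53620 of 53801 identifiers were found. Overlap with other transcripts was counted over 50-base windows. The code was tested on simulated data. No replicates were alike within sampling noise (chi-square per degree of freedom 9.68 to 72.96 between libraries of a group). Members and lists were chosen with earlier results of these data known. Named were called members, the mitochondrial members, the nuclear member of each complex with the highest level per length, tissue forms of complex IV, genes the study names and called genes of the other lists. Any other gene was chosen after its values were seen.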

Additional observations from a re-analysis of the deposited data

Results flagged for a closer look

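Of 60 groups of 4 libraries checked (named members, sums and the ratio of sums), 2 held a library whose gap to the nearest other was wide for the range of its group. Chance marks about 1 in 20 such groups. The first was Cox6b2, with 45.8 normalised counts in GFP+ replicate 1 against at most 7.05 in the other GFP+ libraries. The second was the ratio of the mitochondrial to the nuclear sum, at 1.02 in GFP- replicate 4 against 1.438 to 1.502 in the other GFP- libraries. GFP- replicate 4 also had the highest melanocyte marker sum (77481 normalised counts) and the lowest stromal marker sum (252370) of all libraries. The part of either in the ratio was not tested.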

How the results depend on the processing

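The count of members called lower was 7 to 21 when single libraries were left out (main value 10), with 21 without GFP- replicate 3 and 7 without GFP- replicate 4. It was 18 with limma voom and 22 without both GFP- replicate 3 and GFP+ replicate 1, where 1 member, Cox7a2l, was called higher. In each other alternative, those without single libraries included, 0 members were called higher. Ndufa4, Sdhb, Uqcrc1, Uqcrq, Cox7b, Cox8a and Atp5a1 were called in all 15 alternatives, Ndufa9 in 13, Uqcr10 in 12 and Atp5b in 7. With the replicate block 12 members were called lower, the 10 and also Cox5a and Atp5g1. The labels do not say that equal numbers share a tumour, and deviations of equally numbered libraries correlated at 0.05, -0.16, -0.12 and 0.26, so the numbers were not taken to pair them; only replicate 4 correlated best with its own number in both groups. Over all genes, edgeR called 327 lower and 405 higher, against 727 and 712 in DESeq2, 1021 and 867 were called without both named libraries, and leaving out single libraries gave 469 to 900 lower (the lowest without GFP- replicate 4) and 460 to 937 higher (the lowest without GFP+ replicate 3). The log2 fold change of mt-Nd1 (-0.04) ran from -0.15 to 0.049 when single libraries were left out (0.01 without GFP- replicate 1, 0.049 without GFP- replicate 2 and 0.04 without GFP+ replicate 2), and that of mt-Nd6 (0.23) from -0.053 (without GFP+ replicate 4) to 0.44. The causes were not tested. Medians and sums kept their direction in every alternative run for them. Scaling by total counts moved the median of all genes by -0.17 on the log2 scale, with the nuclear median at -0.60, the mitochondrial at -0.42 and 22 members called lower.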
